A study of Mus musculus with 3 samples.

Results

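The genes described here are 10 inflammatory cytokines and IL-1 antagonists of the mouse: the IL-1 agonists *Il1a* and *Il1b*, the IL-1 antagonists *Il1rn* and *Il1r2*, the cytokines *Il6*, *Tnf*, *Il10*, and *Il18*, and the subunit genes *Il12b* and *Il23a*. They were chosen by name, and each symbol matched 1 of the 31053 mouse genes counted in the libraries. All 10 had at least 1 UMI (unique molecular identifier, 1 for each captured RNA molecule) in each of the 3 libraries. The levels below describe where these genes were read in a skin graft and how they differed between treated and untreated cultured cells.

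Single-cell RNA sequencing had been performed on 3 libraries, 1 for each condition, so that no difference between conditions has a replicate check. The graft library (hSTSG) came from split-thickness human skin placed under the skin of wild-type C57BL6/J mice, with the cells of 5 mice pooled after 14 days. The control library (Co-Mac) and the treated library (VD-Mac) came from bone marrow of C57/BL6 mice grown for 7 days in GM-CSF, after which the VD-Mac culture received 1,25-dihydroxycholecalciferol (VD3, the active form of vitamin D) at 1 μM for 24 hours and the Co-Mac culture was left without it. The graft was not given VD3, the ages of the mice are not given in the sources used here, and only mouse genes were counted.

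After cells with at least 300 genes, under 100000 UMIs, and under 10% mitochondrial UMIs were kept, Co-Mac held 7257 of 7866 barcodes, VD-Mac 8825 of 9794, and hSTSG 2144 of 2644. The depth of all barcodes came to 136905324 gene UMIs in Co-Mac, 124731240 in VD-Mac, and 24472168 in hSTSG, and the kept cells had a median of 15804, 12089, and 6637.5 UMIs. Co-Mac and VD-Mac shared 15 kept barcodes, Co-Mac and hSTSG 3, and VD-Mac and hSTSG 6. Cells were clustered without the 10 genes and their pathway genes among the variable genes, and clusters were named by marker genes. Levels are given in CPM, the UMIs of a gene relative to the gene UMIs in the cells concerned, with an exact Poisson 95% interval. Intervals in these results cover counting error only, not the spread between cultures or mice. Counts from 3′ ends are not divided by gene length, so a level is compared between cell types or libraries and not between genes.

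The cultures are labelled macrophages, but macrophage-like cells made up 13.6% of Co-Mac cells and 11.7% of VD-Mac cells. Mature dendritic cell (DC)-like cells were the largest named class in both, with 36.3% and 37.2%. Granulocyte-like cells made up 12.7% and 11.7%, and cycling cells 14.9% and 13.4%. At the main settings, neutrophil precursor-like cells differed most in share among the named classes found in both, with 614 cells (8.46%) in Co-Mac and 59 (0.669%) in VD-Mac. The order of these counts changed with the settings. They were 746 and 1115 with 300 UMIs in place of 300 genes as the lower limit, and 41 and 96 with both cultures clustered together. At resolution 0.8 they were 751 and 256, so no direction was read for this share. The cycling clusters were named for the cell cycle but also reached macrophage marker scores of 0.518 and 0.830, past the 0.5 required of a name, so the macrophage-like share may leave out cycling macrophages. Their neutrophil precursor scores were -2.30 in Co-Mac and 1.87 in VD-Mac, so the cycling classes of the 2 cultures were unlike in make-up. In VD-Mac a cluster of 1446 cells (16.4%) with a median of 1840.5 UMIs was left unnamed. Also unnamed were clusters of 246 Co-Mac cells (3.39%) and 406 VD-Mac cells (4.6%) with *Cd36* and *Gpnmb* among their leading genes. Their macrophage marker scores were -0.088 and 0.129, short of a name, but *Gpnmb* is a marker of the *Trem2* macrophage set. The macrophage-like share may thus leave out macrophages of these clusters as well. In hSTSG the named classes were granulocyte-like (475 cells, 22.2%), monocyte-like (370), *Trem2* macrophage-like (336), *Cd163* *Mrc1* macrophage-like (254), alpha-beta T cell-like (178), fibroblast-like (142), gamma-delta T cell-like (123), neutrophil precursor-like (40), mature DC-like (33), endothelial-like (25), and basophil-like cells (13). The monocyte-like name rested on a marker score of 0.518 against the required 0.5, and it was lost at resolution 0.3, with 30 principal components, with the members among the variable genes, and with a mitochondrial limit of 5%. The mature DC-like name was lost at resolution 0.3, with the members among the variable genes, with the highest doublet scores removed, and with 300 UMIs in place of 300 genes as the lower limit. The *Cd163* *Mrc1* macrophage-like class varied in size. It held 115 cells with the highest doublet scores removed, 119 at resolution 0.8, and 340 with the lower limit of 300 UMIs. Clusters of 115 and 40 cells were left unnamed, the latter with a median of 683.5 UMIs, and the orders below are of the named classes.

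IL-1α and IL-1β bind the receptor IL-1R1 and, with its accessory chain, signal through MyD88 to NF-κB, a path shared with Toll-like receptors. The antagonist encoded by *Il1rn* occupies the same receptor without signaling, and the decoy receptor encoded by *Il1r2* binds IL-1 but lacks a signaling domain. In skin wounds IL-1, TNF, and IL-6 are early signals from myeloid and stromal cells, whereas IL-10 dampens myeloid activation, and IL-23 acts on γδ T cells that make IL-17.

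*Il1b* (ENSMUSG00000027398, chr2:129364570-129371139 on the minus strand of GRCm38) encodes the agonist that inflammasome caspases cut into its active form. In the graft it had 18245 UMIs, or 806 CPM (794 to 817). The granulocyte-like cells held 36.4% of these UMIs (exact binomial 95% interval 35.7 to 37.1%), more than any other class. *Trem2* macrophage-like cells held 21.4%, monocyte-like cells 19.2%, and the 13 basophil-like cells 11.1%. Most *Il1b* RNA of the graft was therefore read in myeloid cells and basophil-like cells, with granulocyte-like cells as the leading source. By level the order was another one, because the classes differ in size and depth. Basophil-like cells were highest, at 32434 CPM (31039 to 33875), followed by granulocyte-like cells at 5796 CPM (5657 to 5937) and monocyte-like cells at 1093 CPM (1057 to 1130). Mature DC-like cells had 625 CPM (554 to 702) and *Trem2* macrophage-like cells 598 CPM (579 to 617), and these neighbors overlapped. Neutrophil precursor-like cells, at 244 CPM (195 to 302), overlapped *Cd163* *Mrc1* macrophage-like cells, at 214 CPM (197 to 231). The T cell-like, fibroblast-like, and endothelial-like cells lay at the low end, each overlapping the next, from 64.5 CPM (47.2 to 86.1) in gamma-delta T cell-like cells to 19.1 CPM (9.54 to 34.2) in endothelial-like cells.

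The share of cells with an *Il1b* UMI was compared after each cell was thinned to 2000 UMIs, which left 1843 of the 2144 graft cells. An *Il1b* UMI was present in 85.5% of 318 thinned granulocyte-like cells (81.2 to 89.2%), with 157 shallower cells left out, and in 85.9% without thinning. Fibroblast-like cells gave 4.26% (1.58 to 9.03%) after thinning and 17.6% before it, at a median depth of 25375 UMIs compared with 2264 in granulocyte-like cells. In alpha-beta T cell-like cells the share was 6.36% thinned and 9.55% unthinned at a median of 5552 UMIs. Whether free RNA gave the shares of these nonmyeloid classes was not tested. Monocyte-like cells reached 42.8% thinned and 61.1% unthinned, *Trem2* macrophage-like cells 29.8% and 53.0%, and *Cd163* *Mrc1* macrophage-like cells 23.2% and 45.3%, all above those of the nonmyeloid classes. The ratio of *Il1b* to *S100a8* UMIs was 0.184 (0.179 to 0.189) in granulocyte-like cells. It varied among nonmyeloid classes, from 0.109 (0.0788 to 0.148) in gamma-delta and 0.245 (0.174 to 0.338) in alpha-beta T cell-like cells to 0.651 (0.506 to 0.834) in fibroblast-like cells and 1 (0.393 to 2.54, from 11 UMIs of each gene) in endothelial-like cells. In *Trem2* macrophage-like cells it was 4.77 (4.42 to 5.15), in *Cd163* *Mrc1* macrophage-like cells 3.33 (2.82 to 3.93), and in monocyte-like cells 2.65 (2.49 to 2.83).

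*Il1b* was unevenly spread within the classes. In *Trem2* macrophage-like cells 15 of 336 cells held 50% of the class's *Il1b* UMIs, and 1 cell held 298 of 3907. Among monocyte-like cells 17 cells held 50%, with 334 of 3512 UMIs in 1 cell. Granulocyte-like cells shared theirs more widely, with 59 of 475 cells for 50% and at most 131 UMIs in 1 cell. Of the 108 *Il1b* UMIs in fibroblast-like cells, 61 lay in 1 cell. The basophil-like level came from 13 cells, all with *Il1b*, of which 4 held 50% of the UMIs. All 8 basophil markers had 1 CPM or more in them, with 17278 CPM in sum and *Hdc* the most abundant at 11104 CPM. The unnamed cluster of 115 cells held a further 4.99% of the *Il1b* UMIs.

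*Il1a* (ENSMUSG00000027399, chr2:129299610-129309972, minus strand), the agonist that is active without inflammasome cleavage, had 1972 UMIs in the graft and was concentrated further in 1 class. Granulocyte-like cells held 65.3% of the UMIs at 1124 CPM (1064 to 1188). Basophil-like cells came next with 319 CPM (195 to 493) from 20 UMIs. *Trem2* macrophage-like cells, at 60.7 CPM (54.9 to 67.0), and monocyte-like cells, at 56.0 CPM (48.1 to 64.8), overlapped. *Cd163* *Mrc1* macrophage-like cells had 14.2 CPM (10.2 to 19.2), within the interval of gamma-delta T cell-like cells at 14.0 CPM (6.73 to 25.8). No UMI was found in mature DC-like cells, which allows up to 6.67 CPM by 3 counts. After thinning, 40.3% of granulocyte-like cells had an *Il1a* UMI (34.8 to 45.9%; 33.7% unthinned), compared with 6.69% of *Trem2* macrophage-like cells (23.8% unthinned) and 1.42% of fibroblast-like cells (4.93% unthinned). In the granulocyte-like class 38.2% of the 408 cells with *Il1b* also had *Il1a*, compared with 5.97% of the cells without *Il1b*, at median depths of 2309 and 2044 UMIs.

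*Il1rn* (ENSMUSG00000026981, chr2:24336853-24351494, plus strand) encodes the IL-1 receptor antagonist. Of its 12331 graft UMIs, granulocyte-like cells held 36.3%, *Trem2* macrophage-like cells 26.4%, monocyte-like cells 19.4%, and *Cd163* *Mrc1* macrophage-like cells 8.91%. *Il1rn* reached 3907 CPM (3793 to 4023) in granulocyte-like cells and 744 CPM (714 to 774) in monocyte-like cells. The unnamed cluster of 40 shallow cells lay between them at 2602 CPM (2190 to 3069), from 141 UMIs. Mature DC-like cells at 509 CPM (446 to 580) overlapped *Trem2* macrophage-like cells at 497 CPM (480 to 515). *Cd163* *Mrc1* macrophage-like cells at 371 CPM (350 to 394) overlapped neutrophil precursor-like cells at 322 CPM (265 to 388). The fibroblast-like level was far lower, 17.8 CPM (13.7 to 22.7), and the basophil-like cells had 1 UMI. Thinned shares were 86.5% in granulocyte-like cells, 64.9% in monocyte-like cells, 52.9% in *Trem2* macrophage-like cells, and 44.1% in *Cd163* *Mrc1* macrophage-like cells, compared with 4.26% in fibroblast-like cells. Unthinned they were 88.6, 81.1, 88.4, 71.3, and 21.8%.

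*Il1r2* (ENSMUSG00000026073, chr1:40074079-40125231, plus strand) encodes the decoy receptor. Granulocyte-like cells held 44.6% of its 3016 graft UMIs at 1175 CPM (1113 to 1240), followed by neutrophil precursor-like cells at 662 CPM (579 to 753). It was low in macrophages. *Cd163* *Mrc1* macrophage-like cells had 13.2 CPM (9.37 to 18.01) and *Trem2* macrophage-like cells 3.52 CPM (2.23 to 5.28), with 0.608% of thinned *Trem2* macrophage-like cells and 75.2% of thinned granulocyte-like cells carrying a UMI (6.55% and 76.0% unthinned). Monocyte-like cells at 122 CPM (110 to 135) overlapped alpha-beta T cell-like cells at 106 CPM (87.7 to 126). Fibroblast-like cells had 70.3 CPM (62.0 to 79.5), from 257 UMIs with at most 9 in 1 cell, and a thinned share of 15.6% (10.0 to 22.7%; 66.9% unthinned). Their ratio of *Il1r2* to *S100a8* UMIs was 1.55 (1.27 to 1.89), compared with 0.0373 (0.0353 to 0.0394) in granulocyte-like cells. A further 18.1% of the UMIs lay in an unnamed cluster of 115 cells led by immunoglobulin, cell cycle, and DC genes.

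The ratio of *Il1rn* to *Il1b* UMIs needs no scaling within a library and was compared between classes, not read as a ratio of molecules. It was 0.676 (0.661 to 0.692) over all graft cells and 0.674 (0.649 to 0.700) in granulocyte-like cells. Monocyte-like cells had 0.680 (0.646 to 0.717), within the same range, and *Trem2* macrophage-like cells 0.832 (0.794 to 0.872). *Cd163* *Mrc1* macrophage-like cells were the macrophages with the higher ratio, 1.74 (1.58 to 1.92). Higher ratios from fewer UMIs of *Il1b* were read in alpha-beta T cell-like (2.00, 47 UMIs), gamma-delta T cell-like (2.30, 46 UMIs), and endothelial-like cells (3.36, 11 UMIs) and in the unnamed cluster of 40 cells (3.62, 39 UMIs). Basophil-like cells had the lowest, 0.000492, from 1 UMI of *Il1rn* and 2033 of *Il1b*.

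*Il6* (ENSMUSG00000025746, chr5:30013114-30019981, plus strand), a cytokine that acts through gp130 and STAT3, came mainly from other cells than *Il1b*. Fibroblast-like cells held 58.0% of its 4069 graft UMIs, at 646 CPM (620 to 672). Basophil-like cells held 27.2%, at 17645 CPM (16620 to 18716), and *Il6* was also among the 10 leading genes of their cluster. Endothelial-like, monocyte-like, and mature DC-like cells overlapped at 92.0 CPM (68.9 to 120), 90.6 CPM (80.5 to 102), and 80.1 CPM (56.1 to 111). The monocyte-like value rested on 1 cell with 231 of the 291 UMIs. That class also had 147 CPM of basophil markers in sum (4 of 8 at 1 CPM or more, *Mcpt8* the most abundant at 89.3 CPM, with *Cpa3*, *Ms4a2*, and *Fcer1a* at 0), and their part in its *Il6* was not tested. *Trem2* macrophage-like cells had 5.97 CPM (4.24 to 8.16) and granulocyte-like cells 8.74 CPM (4.19 to 16.1). After thinning 35.5% of fibroblast-like cells had an *Il6* UMI (27.6 to 44.0%; 62.0% unthinned), compared with 0.943% of granulocyte-like cells (2.11% unthinned). Even among fibroblast-like cells the counts were uneven, with 10 of 142 cells holding 50% of the UMIs.

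*Tnf* (ENSMUSG00000024401, chr17:35199381-35202007, minus strand), the proinflammatory cytokine that acts through the receptors TNFR1 and TNFR2, was highest in granulocyte-like cells, at 2290 CPM (2203 to 2379) and with 44.6% of 5883 UMIs. Basophil-like cells had 798 CPM (592 to 1052). *Cd163* *Mrc1* macrophage-like cells had 275 CPM (256 to 294), above *Trem2* macrophage-like cells at 217 CPM (206 to 229). The latter overlapped gamma-delta T cell-like cells at 199 CPM (168 to 235) and monocyte-like cells at 192 CPM (177 to 208). Of the gamma-delta T cell-like cells 37.7% had a UMI after thinning (29.1 to 46.9%; 53.7% unthinned), compared with 5.20% of alpha-beta T cell-like cells (2.41 to 9.65%; 12.9% unthinned), at median depths of 5520 and 5552 UMIs. The thinned share was 57.9% in granulocyte-like cells, 38.6% in *Cd163* *Mrc1* macrophage-like cells, 29.2% in *Trem2* macrophage-like cells, and 2.84% in fibroblast-like cells. Without thinning these shares were 57.1, 64.2, 75.9, and 14.1%.

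*Il10* (ENSMUSG00000016529, chr1:131019845-131024974, plus strand), the anti-inflammatory cytokine, had 822 graft UMIs with a different leading class. *Cd163* *Mrc1* macrophage-like cells held 32.5% at 90.2 CPM (79.7 to 102), overlapping alpha-beta T cell-like cells at 73.2 CPM (58.5 to 90.4). Monocyte-like cells had 47.3 CPM (40.1 to 55.5) and *Trem2* macrophage-like cells 31.5 CPM (27.4 to 36.1), the latter overlapping granulocyte-like cells at 18.4 CPM (11.4 to 28.1). Few cells carried these counts. In *Cd163* *Mrc1* macrophage-like cells 7 cells held 50% of the UMIs, in alpha-beta T cell-like cells 2, and in *Trem2* macrophage-like cells 2, of which 1 had 77 of 206 UMIs. The thinned share was 10.9% in *Cd163* *Mrc1* macrophage-like cells (7.12 to 15.8%; 23.2% unthinned) and 0.709% in fibroblast-like cells (2.82% unthinned).

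*Il12b* (ENSMUSG00000004296, chr11:44400063-44414033, plus strand) encodes the p40 subunit of both IL-12 and IL-23, and *Il23a* (ENSMUSG00000025383, chr10:128296139-128298752, minus strand) the p19 subunit of IL-23. The 2 subunits of IL-23 had different leading classes in the graft. Of 50 *Il12b* UMIs, 48 lay in mature DC-like cells, a share of 96.0% (86.3 to 99.5%) and a level of 107 CPM (78.7 to 142), from 7 of 33 cells in a cluster whose name was lost under the 4 alternatives given above. Granulocyte-like cells had no *Il12b* UMI, which allows up to 2.62 CPM, and *Trem2* macrophage-like cells none, which allows up to 0.459 CPM. For *Il23a* granulocyte-like cells held 72.4% of 323 UMIs at 204 CPM (179 to 232), and 6 cells held 50% of these. Basophil-like cells had 846 CPM (633 to 1106), with 50 of 53 UMIs in 1 cell. Mature DC-like cells had 4 UMIs of *Il23a*, 8.90 CPM (2.42 to 22.8). A UMI of *Il23a* was found in 13.2% of thinned granulocyte-like cells (9.69 to 17.4%; 10.7% unthinned) and in 0.709% of thinned fibroblast-like cells (4.93% unthinned). Both T cell-like classes had 0 UMIs, with limits of 2.55 CPM for alpha-beta and 4.21 CPM for gamma-delta cells. Over the whole graft 2 of the 8 cells with *Il12b* also had *Il23a*.

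*Il18* (ENSMUSG00000039217, chr9:50554827-50581840, plus strand), a cytokine of the IL-1 family that also needs caspase cleavage, was low, with 266 UMIs. Monocyte-like cells at 17.7 CPM (13.4 to 23.0), *Cd163* *Mrc1* macrophage-like cells at 16.2 CPM (12.0 to 21.5), fibroblast-like cells at 15.6 CPM (11.8 to 20.2), and granulocyte-like cells at 11.4 CPM (6.05 to 19.4) all overlapped. *Trem2* macrophage-like cells, at 10.3 CPM (7.94 to 13.02), overlapped each of them apart from the monocyte-like cells. *Il18* had 0 UMIs in gamma-delta T cell-like cells, a limit of 4.21 CPM.

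**Figure D1:**
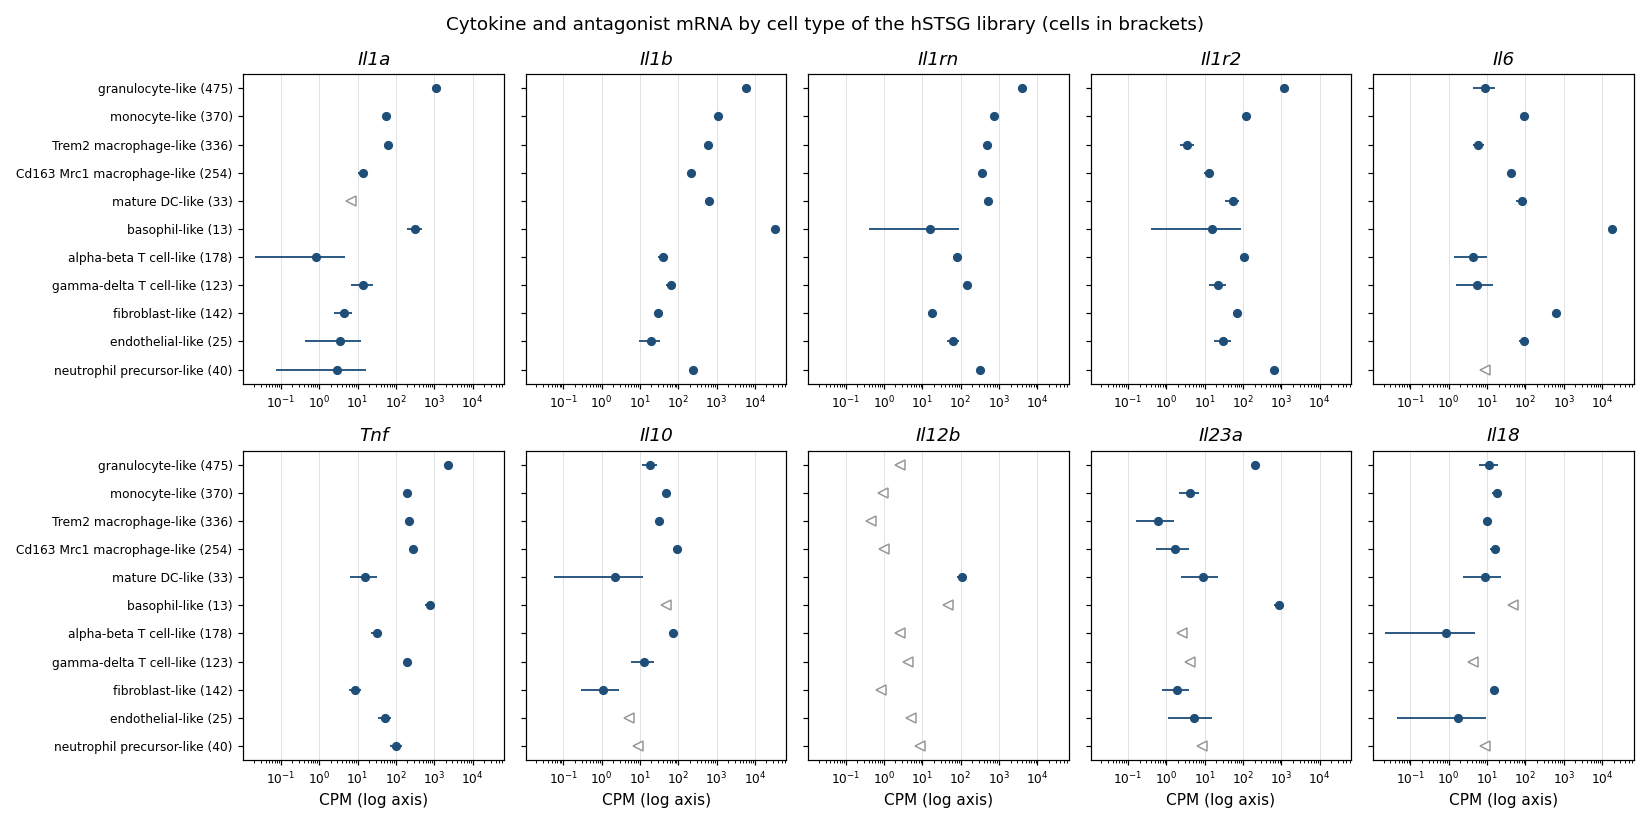
Levels of the 10 genes by cell type in the graft, in CPM on a log axis, with 1 panel for each gene. Points are CPM of summed UMIs with exact Poisson 95% intervals, open grey triangles mark the level that 0 UMIs allows (3 counts), and unnamed clusters are not drawn; *Il1a*, *Il1rn*, *Il1r2*, and *Tnf* are highest in granulocyte-like cells, *Il1b*, *Il6*, and *Il23a* in the 13 basophil-like cells, *Il10* in *Cd163* *Mrc1* macrophage-like cells, *Il12b* in mature DC-like cells, and *Il18* in monocyte-like cells within counting error of its neighbors.

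The pathway genes listed with the members were ranked over graft clusters of 50 or more cells, without the basophil-like, endothelial-like, mature DC-like, and neutrophil precursor-like cells. Within that range the receptor that IL-1 signals through, *Il1r1*, was highest in fibroblast-like cells of the graft (301 CPM) and next in gamma-delta T cell-like cells (115 CPM). Its accessory chain *Il1rap* was highest in granulocyte-like cells, at 1030 CPM. The inflammasome sensor *Nlrp3* had 3567 CPM and the IL-36 ligand *Il1f9* 1940 CPM in granulocyte-like cells, their highest class, whose cluster *Il1f9* led. The interleukin *Il33* was highest in fibroblast-like cells (337 CPM) and its receptor *Il1rl1* in alpha-beta T cell-like cells (338 CPM). *Il18r1*, a chain of the IL-18 receptor, was highest in gamma-delta T cell-like cells (205 CPM), and *Il18bp*, which binds IL-18, in *Cd163* *Mrc1* macrophage-like cells (42.2 CPM). The IL-23 receptor *Il23r* was highest in gamma-delta T cell-like cells (70.1 CPM), where *Il17a*, the leading gene of that cluster, reached 2023 CPM. For IL-6 the receptor *Il6ra* was highest in granulocyte-like cells (244 CPM) and the shared chain *Il6st* in fibroblast-like cells (323 CPM).

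The effect of VD3 was read as the ratio of VD-Mac to Co-Mac CPM, with an exact conditional binomial 95% interval for counting error and no test. A gene was counted as past 2-fold when it differed by 2-fold or more and the library with the higher level had 10 CPM or more. Over all cells 6 of the 10 members had 10 CPM or more and 2 of them were past 2-fold, compared with 525 of 7732 genes (6.79%). *Il1rn* had 71.8 CPM in Co-Mac and 22.7 CPM in VD-Mac, 3.16-fold lower (3.03 to 3.30) with VD3. *Il1a* had 10.8 CPM and 25.5 CPM, 2.36-fold higher (2.22 to 2.52). The receptor antagonist was thus lower and 1 agonist higher in the treated library, while the decoy receptor, given next, was higher but short of 2-fold. *Il1r2* had 28.2 and 55.2 CPM, 1.96-fold higher (1.88 to 2.04). It passed 2-fold with the highest doublet scores removed (log2 ratio 1.02) and with the median of gene ratios set to 1 (1.06). With the cell type make-up of both libraries set to that of Co-Mac, its log2 ratio was 1.73. That alternative matches classes by name. It gives the 59 neutrophil precursor-like cells of VD-Mac (*Il1r2* at 334 CPM) the UMI share of the 614 in Co-Mac. The cycling classes, unlike in make-up, are matched too, so all values at the Co-Mac make-up carry these differences within classes. *Il1b* had 21.8 and 32.4 CPM (1.49-fold, 1.42 to 1.56), a log2 ratio of 0.57 that was 0.86 at the Co-Mac make-up and 0.19 as a mean over cells with the same weight for each cell. *Tnf* had 35.1 and 42.3 CPM, a log2 ratio of 0.27 that was 0.64 at the Co-Mac make-up. *Il12b* had 11.3 and 15.7 CPM, a log2 ratio of 0.48 that was 0.05 at the Co-Mac make-up and turned to -0.21 as a mean over cells, so that no direction was read for it. *Il6* (3.35 and 2.73 CPM), *Il18* (5.90 and 7.95 CPM), *Il10* (7 and 10 UMIs), and *Il23a* (14 and 13 UMIs) were below 10 CPM in both libraries. The median log2 ratio was 0.52 over these 6 members and -0.10 over all genes with 10 CPM or more in either library. With a mitochondrial limit of 5% in place of 10%, which left 3125 Co-Mac and 3619 VD-Mac cells, the log2 ratio of *Il1rn* was -0.96, short of 2-fold, and *Il1a* (1.19), *Il1b* (1.10), and *Il1r2* (1.08) were past it.

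In macrophage-like cells, the class the cultures are labelled for, the IL-1 genes differed more. They numbered 986 in Co-Mac (cluster 3) and 1035 in VD-Mac (cluster 4), with 10 of 10 macrophage markers at 1 CPM or more in both and 2340 and 2786 CPM in sum. *Il1a* itself was among the 10 leading genes of the VD-Mac cluster. Of the 10 members 5 had 10 CPM or more and 4 were past 2-fold, 3 higher and 1 lower, compared with 824 of 7539 genes (10.9%). *Il1b* had 17.5 CPM (15.8 to 19.4) in Co-Mac and 73.4 CPM (69.4 to 77.6) in VD-Mac, 4.19-fold higher (3.73 to 4.71). *Il1a* had 26.8 CPM (24.7 to 29.1) and 86.8 CPM (82.4 to 91.3), 3.24-fold higher (2.94 to 3.57). *Il1r2* had 19.5 and 63.8 CPM, 3.27-fold higher (2.92 to 3.67). Both agonists and the decoy receptor were therefore higher with VD3, and the receptor antagonist lower. *Il1rn* had 107 CPM (103 to 112) in Co-Mac and 24.2 CPM (21.9 to 26.6) in VD-Mac, 4.43-fold lower (3.98 to 4.93). *Tnf* had 51.3 and 99.8 CPM, 1.94-fold higher (1.80 to 2.10), and passed 2-fold with the median of gene ratios set to 1 (log2 ratio 1.01), as a mean over cells (1.06), and with both cultures clustered together (1.05). *Il6* rested on 15 UMIs in Co-Mac and 91 in VD-Mac, 0.688 and 5.38 CPM, a ratio of 7.82 (4.50 to 14.5) below the 10 CPM limit. *Il18* had 3.21 and 2.25 CPM, *Il12b* 6 and 15 UMIs, and *Il23a* 2 and 4 UMIs. *Il10* had 0 UMIs in both, which allows up to 0.138 CPM in Co-Mac and 0.177 CPM in VD-Mac. The median log2 ratio was 1.70 over the 5 members and -0.05 over all genes.

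After thinning to 2000 UMIs, the share of macrophage-like cells with an *Il1rn* UMI was 16.2% in Co-Mac (14.0 to 18.7%) and 5.32% in VD-Mac (4.03 to 6.87%). For *Il1b* the shares were 3.04% and 9.19%, for *Il1a* 4.87% and 11.2%, for *Il1r2* 3.04% and 9.96%, and for *Tnf* 9.74% and 16.4%. These shares differed in the same direction as the levels. Thinning left out 0 Co-Mac and 1 VD-Mac cells. Without it, at median depths of 20331.5 and 14849 UMIs, the shares were 65.3% and 21.0% for *Il1rn*, 12.1% and 23.7% for *Il1b*, 26.3% and 39.7% for *Il1a*, 16.7% and 41.6% for *Il1r2*, and 46.2% and 52.1% for *Tnf*. Mature DC-like cells of the same libraries, where *Il1b* was low, had thinned *Il1b* shares of 0.495% and 0.122% (2.01% and 0.793% unthinned) at median depths of 14458.5 and 13664 UMIs. *Il1b* remained a gene of few macrophage-like cells, with 18 Co-Mac and 27 VD-Mac cells holding 50% of its UMIs and up to 35 and 136 UMIs in 1 cell.

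The UMI ratio of *Il1rn* to *Il1b* in macrophage-like cells was 6.11 (5.48 to 6.82) in Co-Mac and 0.329 (0.294 to 0.369) in VD-Mac. With a mitochondrial limit of 5% and the names of the 10% limit, an alternative chosen after seeing the data, it was 6.55 and 0.176. Over all cells it was 3.30 (3.16 to 3.44) and 0.701 (0.667 to 0.737). In mature DC-like cells the ratio was instead higher in VD-Mac. It was 3.82 (3.04 to 4.85) in Co-Mac and 20.5 (14.9 to 29.1) in VD-Mac, from 94 and 39 UMIs of *Il1b*. In Co-Mac 81.5% of the 119 macrophage-like cells with *Il1b* also had *Il1rn*, compared with 63.1% of the cells without *Il1b*, at median depths of 21661 and 20137 UMIs. In VD-Mac these shares were 27.8% of 245 cells and 18.9%, at 15821 and 14610.5 UMIs. *Il1rn* was thus not confined to the cells without *Il1b* in either library. *Il1a* was found in 62.4% of the VD-Mac macrophage-like cells with *Il1b* and in 32.7% of those without it, and in 47.1% and 23.4% in Co-Mac.

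Markers of granulocytes moved with these results. In macrophage-like cells 6 of 8 granulocyte markers had 1 CPM or more in Co-Mac, with 583 CPM in sum, and 7 of 8 in VD-Mac, with 3314 CPM. *S100a8* was the most abundant, at 248 and 1837 CPM, and *Retnlg* was at 0 in both. In an alternative chosen after seeing the data, cells with 0.1% or more of their UMIs from *S100a8* and *S100a9* were left out, 27 in Co-Mac and 123 in VD-Mac, which left *S100a8* at 84.1 and 92.0 CPM. The 4 members past 2-fold were the same. *Il1b* had 16.8 and 71.0 CPM (log2 ratio 2.08), *Il1a* 26.9 and 88.4 CPM (1.72), *Il1rn* 106 and 23.7 CPM (-2.15), and *Il1r2* 18.3 and 55.3 CPM (1.60). With a mitochondrial limit of 5% and clusters made anew, the class compared was another one, 458 macrophage-like cells of Co-Mac and 165 cells of VD-Mac named *Trem2* macrophage-like. The log2 ratio of *Il1rn* was then -0.50, no longer past 2-fold, while those of *Il1a*, *Il1b*, and *Tnf* were 2.98, 3.54, and 1.87 and *Il6* also passed. In a further alternative chosen after seeing the data, the names of the 10% limit were kept and only the cells under 5% were used, 144 of Co-Mac and 97 of VD-Mac. *Il1rn* was then past 2-fold lower at -1.28 (90.55 and 37.23 CPM), with *Il1a* at 2.30, *Il1b* at 3.93, *Il1r2* at 1.63, and *Tnf* at 1.98, and *Il6* also passed, from 2 and 27 UMIs. The size of these differences thus varied with the limit. The *Il1rn* call of this class was kept with the names of the 10% limit, from 288 and 55 UMIs, and lost with clusters made anew. Over all cells, where no clusters enter, *Il1rn* was also short of 2-fold at the 5% limit, as given above. The parts of the limit and of the clusters were not tested.

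In granulocyte-like cells, short-lived phagocytes that also led the graft, 5 members had 10 CPM or more and 3 were past 2-fold, compared with 361 of 7629 genes (4.73%). *Il1rn* had 358 CPM in Co-Mac and 172 CPM in VD-Mac, 2.08-fold lower (1.89 to 2.28). *Il1r2* had 164 and 332 CPM, 2.03-fold higher (1.85 to 2.22). *Il1a* had 17.2 and 39.1 CPM, 2.27-fold higher (1.71 to 3.02) from 81 and 140 UMIs. All 3 were near the 2-fold limit. *Il1b* had 232 and 391 CPM, 1.68-fold higher (1.55 to 1.82), and *Tnf* 116 and 198 CPM, 1.70-fold higher (1.52 to 1.91). *Il18* had 4.04 and 7.54 CPM, *Il6* 5 and 4 UMIs, *Il12b* 5 and 0, and *Il23a* 1 and 2, and *Il10* had none in either, which allows up to 0.638 and 0.837 CPM. The median log2 ratio was 0.77 over the 5 members and 0.18 over all genes, a shift of the whole class against which the ratios are read. With the median of gene ratios set to 1, the log2 ratio of *Il1r2* was 0.85 and no longer past 2-fold, and that of *Il1rn* was -1.23. *Il1r2* was also just short of 2-fold at resolution 0.8 (0.99) and with both cultures clustered together. As a mean over cells, none of the 3 was past 2-fold, with log2 ratios of 0.28 for *Il1a*, 0.58 for *Il1r2*, and -0.96 for *Il1rn*. With a mitochondrial limit of 5% none was either, with 0.01, 0.47, and -0.82, nor with that limit and the names of the 10% limit, with 0.44, 0.69, and -0.95. *Il1b* and *Tnf* had log2 ratios of 0.15 and 0.29 as a mean over cells. No member of this class was thus past 2-fold under each alternative.

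The granulocyte-like class held clusters 6 and 7 of Co-Mac and cluster 5 of VD-Mac, of which cluster 6 had *Il1b* among its 10 leading genes and cluster 7 was led by *Apoe*, *Lcn2*, *Stfa2l1*, and *Chil3*. Cluster 7 held 3468459 UMIs in 380 cells (median 7873), and cluster 6 held 1230523 UMIs in 544 cells (median 2068.5). The summed Co-Mac levels of the class therefore weigh cluster 7 more than its share of cells, and its part in the ratios was not tested. Granulocyte markers of the class had 37496 CPM in sum in Co-Mac (7 of 8 at 1 CPM or more) and 21805 CPM in VD-Mac (8 of 8), with *S100a8* the most abundant at 22759 and 14435 CPM. Monocyte markers had 7936 and 3796 CPM (7 of 7 in both, *Chil3* at 6916 and 3262 CPM), and macrophage markers 1175 and 635 CPM. The part of these markers in the members' differences was not tested. Thinned shares were 44.4% and 25.9% for *Il1rn*, 32.2% and 38.7% for *Il1b*, 25.2% and 39.6% for *Il1r2*, 20.4% and 24.7% for *Tnf*, and 2.13% and 3.54% for *Il1a*, with 268 Co-Mac and 300 VD-Mac cells left out. Unthinned, at medians of 2933.5 and 2683 UMIs, they were 58.5% and 35.7%, 47.1% and 47.9%, 39.4% and 49.0%, 35.8% and 33.3%, and 6.06% and 6.67%. The share of cells with *Tnf* thus differed in direction with thinning, and no order was read from it. The ratio of *Il1rn* to *Il1b* UMIs was 1.54 (1.43 to 1.66) in Co-Mac and 0.440 (0.400 to 0.484) in VD-Mac, above and below the 0.674 of the graft's granulocyte-like cells. With a mitochondrial limit of 5% the Co-Mac ratio was 0.984.

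Mature DC-like cells, migratory antigen-presenting cells and the most numerous class, held 88.7% of the *Il12b* UMIs of Co-Mac and 84.5% of those of VD-Mac. Of the 10 members 3 had 10 CPM or more and 0 were past 2-fold, compared with 313 of 6654 genes (4.70%). *Il12b* had 32.5 CPM in Co-Mac and 31.5 CPM in VD-Mac, and the interval of the ratio (0.900 to 1.04) included no difference, while as a mean over cells the log2 ratio was -0.31 and the 2 cluster pairs of the class, given below, differed in opposite directions. *Il18* had 10.5 and 14.1 CPM, 1.35-fold higher (1.19 to 1.52). *Il1rn* had 8.76 and 16.3 CPM, 1.86-fold higher (1.64 to 2.11), opposite in direction to the macrophage-like and granulocyte-like cells. Its log2 ratio of 0.90 was 1.08 with a mitochondrial limit of 5%, 1.01 with the highest doublet scores removed, and 1.06 at resolution 0.8, each past 2-fold. *Il6* had 272 UMIs in Co-Mac and 67 in VD-Mac, 6.64 and 1.36 CPM, 4.87-fold lower (3.72 to 6.46) but below 10 CPM. *Il1b* had 94 and 39 UMIs, 2.29 and 0.793 CPM, 2.89-fold lower (1.97 to 4.32). *Il1a* (15 and 32 UMIs), *Il1r2* (56 and 64), *Tnf* (76 and 79), *Il10* (7 and 8), and *Il23a* (4 and 4) were low, with ratio intervals that included no difference. These cells nevertheless held 7 of 7 and 8 of 10 *Il10* UMIs of the cultures. Granulocyte markers in this class had 204 and 85.5 CPM in sum (4 and 5 of 8 at 1 CPM or more, *S100a8* at 130 and 57.9 CPM, *Retnlg* at 0), and their part in the *Il1b* values was not tested. The median log2 ratio was 0.43 over the 3 members and 0.07 over all genes. *Il1rn* reached 10 CPM in VD-Mac alone, and over the 2 members that did so in both libraries the median was 0.19, compared with 0.06 over all genes of that kind.

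The class was made of 2 clusters in each library, which were paired by shared leading genes. In the pair that shared *Ccl5*, *Epsti1*, *Grasp*, *Ramp3*, and *Tmem150c*, *Il12b* had 69.0 CPM in Co-Mac and 60.8 CPM in VD-Mac (ratio 0.881, 0.813 to 0.954), *Il6* 9.67 and 1.76 CPM, and *Il1rn* 5.24 and 10.3 CPM. In the pair that shared *Aldh1a2*, *Dmrta2*, *Mir155hg*, *Nr4a3*, and *Pou4f1*, *Il12b* had 5.59 and 10.5 CPM (ratio 1.88, 1.53 to 2.33), *Il6* 4.41 and 1.08 CPM, and *Il1rn* 11.4 and 20.6 CPM. *Il6* was thus lower and *Il1rn* higher in both pairs, whereas *Il12b* was concentrated in the former, whose Co-Mac cluster it led. *Il18* had 11.5 and 14.1 CPM in the former and 9.66 and 14.1 CPM in the latter.

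**Figure D2:**
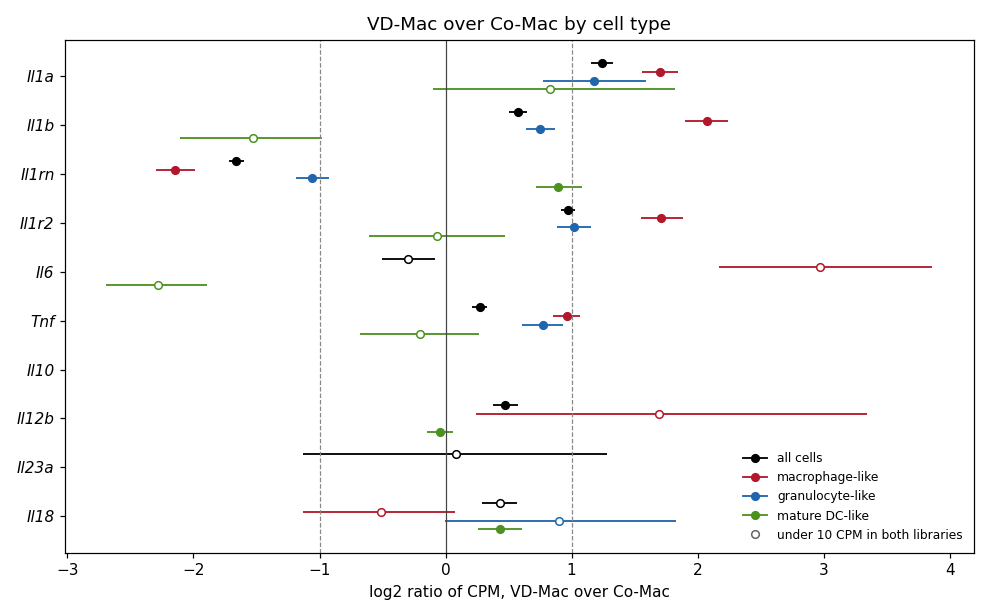
Log2 ratio of CPM, VD-Mac over Co-Mac, for the 10 genes over all cells and in macrophage-like, granulocyte-like, and mature DC-like cells, with exact conditional binomial 95% intervals, where filled points reached 10 CPM in at least 1 library and open points did not, values with fewer than 20 UMIs over both libraries or 0 in 1 library are not drawn, and dashed lines mark 2-fold. *Il1rn* lies left of -1 in macrophage-like cells (-2.15) and right of 0 in mature DC-like cells (0.90), and *Il1a* and *Il1b* lie right of 1 in macrophage-like cells (1.70 and 2.07).

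*Il1rn* was also lower in some of the other classes. In cycling cells, whose make-up differed between the cultures as given above, it had 85.3 CPM in Co-Mac and 15.1 CPM in VD-Mac, 5.64-fold lower (5.10 to 6.25), while *Il1r2* had 34.9 and 101 CPM, *Il1a* 13.8 and 30.5 CPM, *Il1b* 21.6 and 21.7 CPM, and *Tnf* 51.8 and 61.5 CPM. *Il18* had 3.82 and 2.00 CPM there, 1.91-fold lower (1.40 to 2.64) and opposite in direction to mature DC-like cells. Granulocyte markers in cycling cells had 1565 and 14356 CPM in sum (7 of 8 at 1 CPM or more in both, *S100a8* at 854 and 8244 CPM, *Retnlg* at 0), and their part was not tested. In the unnamed clusters paired by *Cd36*, *Gpnmb*, and *Wfdc17*, *Il1rn* had 78.6 and 22.8 CPM, *Il1a* 8.52 and 31.1 CPM, *Il1b* 16.2 and 24.9 CPM, and *Il1r2* 20.3 and 27.9 CPM. Granulocyte markers there had 423 and 2065 CPM in sum (7 of 8 in both, *S100a8* at 231 and 1274 CPM), and their part was not tested. The unnamed clusters of few UMIs per cell, 7.65% of Co-Mac and 16.4% of VD-Mac cells, had *Il1rn* at 53.7 and 20.6 CPM and *Il1r2* at 13.4 and 51.9 CPM. There *Il1a* had 20.1 and 30.4 CPM and *Il1b* 44.2 and 39.6 CPM, and 12.4% of all genes were past 2-fold. In the small unnamed clusters paired by *Ccl5*, *Gm13546*, and *Ppdpf*, *Il1rn* was past 2-fold higher, at 8.24 and 16.8 CPM from 3 and 13 UMIs (ratio interval 0.562 to 11.2), as was *Il18* from 1 and 17 UMIs, where 23.4% of all genes were past 2-fold. In the cDC1-like cells, 84 and 119 in number, *Il1r2* had 231 and 343 CPM (1.49-fold, 1.28 to 1.73). *Tnf* was the 1 member past 2-fold there, at 29.2 and 79.0 CPM, in a class where 16.2% of all genes were past 2-fold and granulocyte markers had 119 and 966 CPM in sum (3 and 6 of 8 at 1 CPM or more, *S100a8* at 102 and 705 CPM), whose part was not tested. Basophil-like cells numbered 36 in VD-Mac and were not compared. The neutrophil precursor-like clusters were led by different genes in the 2 cultures, and 46.2% of all genes were past 2-fold between them, so their differences were not read as those of 1 class. Of 4 members tested there, *Il1r2* (7.13-fold), *Il1b* (2.52-fold), and *Tnf* (2.17-fold) were past 2-fold higher and *Il1rn* (ratio 1.09, 0.784 to 1.49) was not.

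In macrophage-like cells 10 of 57 tested genes of the pathway lists were past 2-fold (17.5%, 5 higher and 5 lower), compared with 10.9% of all genes. Of the IL-1 family receptors and antagonists, 4 of 8 had 10 CPM or more in macrophage-like cells, with 0 higher and 2 lower: *Il1rl1*, the IL-33 receptor, had 18.4 and 2.01 CPM, and *Il18rap*, a chain of the IL-18 receptor, 13.7 and 1.95 CPM. Of these 4 genes only *Il1rl2* reached 10 CPM in both libraries, at 26.0 and 13.4 CPM, and the others did so in Co-Mac alone, so that the minimum level favored lower genes here and no median is given. Of the other IL-1 family ligands only *Il1f9* reached 10 CPM in macrophage-like cells, with 25.1 and 9.70 CPM. The medians of the lists below are to be read beside the -0.05 of all genes. Among 15 genes of NF-κB and its feedback 3 were higher and 1 lower, with a median of -0.01. The inhibitor *Nfkbia* had 233 and 538 CPM, *Nfkbiz* 7.99 and 32.0 CPM, and *Zfp36*, which destabilizes cytokine mRNA, 149 and 315 CPM, whereas *Nfkbie* had 61.5 and 23.3 CPM. Feedback genes thus moved both ways. Of the inflammasome list 9 of 11 were tested and *Aim2* was higher, at 32.0 and 65.7 CPM, with a median of -0.12. Of the TNF receptor list *Tnfrsf1b* was lower (105 and 35.7 CPM) among 8 tested (median 0.07), and of the IL-6 and IL-10 list *Osm* was higher (19.3 and 60.8 CPM) among 8 (median 0.59). The adaptor list had 0 of 10 past 2-fold (median 0.16), the IL-12 and IL-23 list 0 of 2, and the lymphocyte cytokines had none at 10 CPM.

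Over all cells 7 of 57 tested genes of the lists were past 2-fold (12.3%), compared with 6.79% of all genes, of which 4.63% were lower and 2.16% higher. Among the listed receptors *Il1rap* (14.4 and 5.44 CPM), *Il1rl2* (16.6 and 6.66 CPM), and *Il18rap* (10.8 and 2.72 CPM) were lower. All 3 reached 10 CPM in Co-Mac alone, and the other genes of that list were below it in both libraries. Among these *Il1r1* had 2.07 and 0.198 CPM (274 and 23 UMIs), *Il1rl1* 8.35 and 2.16 CPM, and *Il18r1* 6.5 and 2.9 CPM. *Il18bp* had 3.94 and 2.89 CPM and *Sigirr* 7.48 and 8.71 CPM. *Il1f9* (19.5 and 6.96 CPM), *Nlrp3* (42.4 and 21.1 CPM), and *Tnip3*, a partner of the NF-κB inhibitor A20 (202 and 101 CPM), were lower, and *Zfp36* (133 and 273 CPM) was higher. Beside -0.10 over all genes, the medians of the other lists were -0.06 for the inflammasome, -0.04 for the adaptors, 0.12 for NF-κB, -0.20 for the TNF receptors, 0.20 for IL-6 and IL-10, and -0.27 for IL-12 and IL-23. In granulocyte-like cells *Zfp36* (195 and 394 CPM) and *Osm* (36.6 and 95.7 CPM) were higher and *Tnip3* (54.7 and 20.4 CPM) lower, and no gene of the other lists was past 2-fold, 3 of 55 in all (5.45%, compared with 4.73% of all genes). Their medians lay between 0.19 and 0.52, above the 0.18 of all genes. In mature DC-like cells *Il18r1* (13.2 and 4.39 CPM) and *Tnip3* (306 and 121 CPM) were lower and none was higher, 2 of 46 (4.35%, compared with 4.70% of all genes), with medians between -0.44 and 0.02 for the lists other than the receptors, of which 2 were tested.

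The genes most like the IL-1 members were sought by the Pearson correlation of log2(CPM + 5) over 21 points, each a named cell type with 50 or more cells in 1 of the 3 libraries, among 6534 genes with 50 CPM or more in at least 1 point. The points share libraries and differ in depth, so these values are a description. Among the 5 genes most like *Il1b* were *Il10rb* (r = 0.933), *Gm5150* (0.930), *Cd14* (0.925), and *Slc16a3* (0.917). *Il1rn* was most like *N4bp1* (0.931), *Cd14* (0.929), *Rnf149* (0.925), *Gm5150* (0.917), and *Mapkapk2* (0.912). The lists of *Il1b* and *Il1rn* shared *Cd14*, the coreceptor for bacterial lipopolysaccharide, and *Gm5150*. *Il1a* was most like *Acod1* (0.906), *P2ry2* (0.900), *Clec4e* (0.891), *Clec4d* (0.884), and *Ccl3* (0.881), and *Il1r2* was less like any gene, with *Nedd9* (0.738), *Pram1* (0.737), *Apbb1ip* (0.731), *Inpp1* (0.731), and *Ifitm1* (0.728).

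Since the agonists *Il1a* and *Il1b* lie on the same strand of chromosome 2 and were both higher in VD-Mac macrophage-like cells, their promoters are shown, each 300 bases around the start of the gene from RefSeq (GRCm38.p6). That of *Il1a* covers chr2:129309923-129310222 and that of *Il1b* chr2:129371090-129371389, both on the minus strand and written 5′ to 3′. Capitals mark TATAAA, the letters of a TATA box, which begin at base 219 in *Il1a* and at base 220 in *Il1b*.
Il1a: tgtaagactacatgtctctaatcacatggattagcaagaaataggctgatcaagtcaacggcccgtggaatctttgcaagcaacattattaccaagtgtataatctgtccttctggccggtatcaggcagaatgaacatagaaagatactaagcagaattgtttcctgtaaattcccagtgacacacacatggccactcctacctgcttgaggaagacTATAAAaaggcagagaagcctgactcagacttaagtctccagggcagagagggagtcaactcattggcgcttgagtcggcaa
Il1b: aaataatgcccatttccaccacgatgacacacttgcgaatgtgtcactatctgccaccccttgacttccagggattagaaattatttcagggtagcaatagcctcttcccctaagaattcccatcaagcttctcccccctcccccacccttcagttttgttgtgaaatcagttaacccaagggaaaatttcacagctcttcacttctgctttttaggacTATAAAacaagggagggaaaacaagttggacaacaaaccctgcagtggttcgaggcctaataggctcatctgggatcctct
Promoters of 8 of the 10 members were in the table (those of *Il10* and *Il23a* were not used here), and 12 motifs chosen after seeing the data were searched on both strands in them and in all 32851 promoters of the table. Of these motifs 7 are given by their letters and 5, of 10 or more letters, by name. TATAAA was present in 5 members (*Il1a*, *Il1b*, *Tnf*, *Il18*, and 1 of the 3 promoters of *Il1rn*) and in 13.6% of all promoters. The NF-κB motif was found in *Il6* and in 1.47% of all promoters, and a looser form of it, which includes the former, in *Il1rn*, *Il6*, and *Tnf* and in 50.8%. The C/EBP letters TTGCNNAA were in *Il6* (10.8% of all), and the looser TTNNNCAA in 7 members, all but *Il12b* (36.7%). The AP-1 letters TGANTCA were in *Il1a*, *Il1rn*, and *Il6* (7.81%), and the looser PU.1 letters GAGGAA in *Il1a*, *Tnf*, and *Il12b* (28.3%). None of the 8 held the PU.1 letters GAGGAAGT (3.20%), the CRE letters TGACGTCA (1.79%), or any of 3 direct repeats of the vitamin D receptor (0.0670, 0.225, and 0.0883%). A match is a description of these letters in a window of 300 bases, not a binding site.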

How the data were processed

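The values deposited by the authors are whole counts of UMIs for each barcode and mouse gene in 1 library per condition, made with 10x Genomics 3′ chemistry and Cell Ranger 3.1.0 per the file headers and not normalized. The submitters' processing notes name mm9 and Seurat 3.1.1 and the paper's methods a human build, whereas the files hold mouse Ensembl genes without coordinates, so positions were taken from GENCODE vM21 (GRCm38). Barcodes with 300 genes or more, under 100000 gene UMIs, and under 10% mitochondrial UMIs were kept. Hashtag antibody UMIs, present in the graft library, were left out of all totals.

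Each library was clustered on its own with Seurat 5.3.0 in R 4.3.3 (Matrix 1.6.5): log normalization to 10000, 2000 variable genes without the members and pathway lists, 15 principal components, 15 neighbors, resolution 0.5, and seed 1. Clusters were named by scoring marker sets as the mean log2 ratio of CPM (prior of 5) to the other cells. The best set gave the name if it scored at least 0.5, at least 3 of its markers were found in 10% of the cells, and its 10 leading genes did not favor another set. The neutrophil precursor-like clusters of VD-Mac and hSTSG were exceptions. Their best set was that of granulocytes, at 3.65 and 5.12, above neutrophil precursor scores of 3.43 and 4.19. Clusters with a median depth under that of the library divided by 3 also needed a marker among these genes. This naming rule was settled after the clusters had been seen, and the names, rebuilt here, can differ from those of the study. Doublets were kept, since Scrublet (scanpy 1.11.5) called 1, 0, and 8 cells in Co-Mac, VD-Mac, and hSTSG at its automatic threshold. An alternative removed the 421, 623, and 37 cells with the highest scores.

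UMIs were summed by library and cell type and compared as CPM in Python 3.11.15 with pandas 2.3.3, anndata 0.12.19, scipy 1.17.1, and numpy 2.4.6. Plots were drawn with matplotlib 3.10.9. Intervals are exact (Poisson for levels, Clopper-Pearson for shares, conditional binomial for ratios). With 1 library per condition no test was made. Cell types were compared between cultures at 50 or more cells in both. Cells were thinned to 2000 UMIs with a fixed seed, and a count of 0 was given the limit of 3 counts. All 10 members are named, as are listed pathway genes past 2-fold with 10 CPM or more or needed for a member's receptor, and genes from the 5 most like each of *Il1b*, *Il1rn*, *Il1a*, and *Il1r2*. The members and lists were chosen with earlier results of these data known. Alternatives varied the cell filters, doublets, clustering, scaling, weighting, make-up, fold, minimum level, and thinning.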

Additional observations from a re-analysis of the deposited data

Results flagged for a closer look

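Among the members, 4 genes differed in opposite directions between cell types of the cultures. The log2 ratio of VD-Mac to Co-Mac for *Il1b* was 2.07 in macrophage-like cells and 0.752 in granulocyte-like cells, but -1.53 in mature DC-like cells. There it rested on 94 and 39 UMIs, 2.29 and 0.793 CPM, below the minimum level in both libraries. The ratio of *Il1b* to *S100a8* UMIs there was 0.0176 (0.0142 to 0.0216) in Co-Mac and 0.0137 (0.00972 to 0.0188) in VD-Mac. These intervals overlapped, and the part of granulocyte markers in this difference was not tested. For *Il1rn* the log2 ratio was -2.15 in macrophage-like cells and -1.06 in granulocyte-like cells, but 0.895 in mature DC-like cells. For *Il6* it was 2.97 in macrophage-like cells, from 15 and 91 UMIs, and -2.28 in mature DC-like cells, from 272 and 67 UMIs. For *Il18* it was -0.93 in cycling cells, from 152 and 57 UMIs, and 0.43 in mature DC-like cells. The levels of *Il6* in both classes and of *Il18* in cycling cells were also below the minimum level. For *Il12b* the 2 cluster pairs of mature DC-like cells differed in opposite directions, with ratios of 0.881 and 1.88. These differences between cell types and clusters were not tested, since each culture is 1 library.

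The graft library also held 1195935 UMIs of hashtag antibodies, and the cultures held 0. No key from hashtag to mouse was used here, so the graft was treated as 1 sample.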

How the results depend on the processing

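No paired analysis was possible because each condition has 1 library. No member that was past 2-fold reversed its direction under any alternative. Over all cells *Il1a* remained past 2-fold under each alternative, and in macrophage-like cells *Il1a*, *Il1b*, and *Il1r2* did. *Il1rn* did so too except with a mitochondrial limit of 5%. That limit, with clusters made anew, gave the most differences: 1250 genes past 2-fold in macrophage-like cells (824 at 10%), where 458 Co-Mac cells were compared with 165 VD-Mac cells named *Trem2* macrophage-like, 1 member in mature DC-like cells (*Il1rn*, higher), 0 in granulocyte-like cells (3 at 10%), a graft *Il1b* share of 39.2% in granulocyte-like cells (36.4%), and ratios of *Il1rn* to *Il1b* of 4.62 and 0.280 in macrophage-like cells of Co-Mac and VD-Mac and 0.984 and 0.396 in granulocyte-like cells. With the 5% limit and the names of the 10% limit, an alternative added after seeing the data, 1198 genes and 6 members were past 2-fold in macrophage-like cells, *Il1rn* still lower, 0 members in granulocyte-like and in mature DC-like cells, and the ratio of *Il1rn* to *Il1b* was 6.55 and 0.176 in macrophage-like cells and 1.13 and 0.420 in granulocyte-like cells. The cause was not tested. The member count in mature DC-like cells was also 1 (*Il1rn*, higher) with the highest doublet scores removed, at resolution 0.8, and at 1.5-fold, and 2 (*Il1b* and *Il6*, lower) with a minimum of 1 CPM. In granulocyte-like cells it was 0 for the mean over cells, for a cause not tested, and 5 at 1.5-fold. The ratio of *Il1rn* to *Il1b* was 0.493 in VD-Mac granulocyte-like cells at resolution 0.3 and 0.390 in VD-Mac macrophage-like cells at resolution 0.8. By construction more genes passed at 1.5-fold (1449 over all cells, 1939 in macrophage-like, 913 in mature DC-like, and 1344 in granulocyte-like cells) and with a minimum of 1 CPM (1102, 1750, 837, and 1323), compared with 525, 824, 313, and 361. With the median of gene ratios set to 1, the share of higher among the genes past 2-fold went from 31.8% to 41.8% over all cells and from 40.7% to 23.0% in granulocyte-like cells. Of 184 log2 ratios recomputed, 119 stayed within their interval and 65 left it, 34 of them upward, and of 22 shares of cells 18 left it, 6 of them upward, where thinning to 1000 UMIs lowered and no thinning mostly raised them. Leaving out macrophage-like cells rich in *S100a8* and *S100a9*, also added after seeing the data, kept the same 4 members. Merging the cultures gave no graft value. The graft's monocyte-like name was lost at resolution 0.3, with 30 principal components, with members among the variable genes, and at the mitochondrial limit of 5%, and its mature DC-like name at resolution 0.3, with members among the variable genes, with the highest doublet scores removed, and with 300 UMIs in place of 300 genes. Few UMIs limit what was read for *Il10*, *Il23a*, and *Il12b* outside DC-like cells, for a cause not tested. The basophil-like values of the graft rest on 13 cells.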
